A study of Mus musculus with 6 samples.

Results

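The genes described here are 32 mouse genes of protein folding and stress signalling in the endoplasmic reticulum (ER), taken by gene symbol from a table of 17714 genes; all 32 were found, and all 32 passed the filter on low counts. They were divided by role into 14 folding genes, 4 genes of ER-associated degradation, 3 stress sensors, the transcription factor gene Xbp1, 7 genes of the Atf4-Ddit3 arm, and 3 genes of protein entry and export. The series compared bulk RNA from mouse samples, under a cell type label of lymphatic endothelium, between sham operation (3 libraries) and MI, or myocardial infarction (3 libraries). All 6 libraries were labelled wild type and day 3, and no strain, age or purification step was given in the sources used here. The labels mention culture in serum-containing medium, name heart tissue or endothelial cells as the source, and do not tie a library to an animal. A p-value here therefore measures the spread among libraries alone, which may be technical.

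Proteins bound for secretion or the membrane enter the ER, where chaperones, disulfide isomerases and lectins fold them, and misfolded chains are sent back to the cytosol for degradation. Unfolded chains activate sensors in the ER membrane. IRE1 (gene Ern1) splices Xbp1 mRNA, ATF6 (Atf6) is cut to release a transcription factor, and PERK (Eif2ak3) phosphorylates the translation factor eIF2, which lowers protein synthesis but favours translation of Atf4 mRNA. The first 2 routes are known chiefly for raising chaperone and degradation genes. The PERK route, shared with amino acid shortage and other stresses as the integrated stress response, is known for amino acid genes and for Ddit3, which encodes the death-linked factor CHOP. Sensor activity, Xbp1 splicing and ATF4 protein were not measured here, since the table holds 1 count per gene and library.

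Sham libraries held 3206732 to 3591473 estimated counts and MI libraries 21154342 to 21689333, so depth went with the operation, and any batch that did the same cannot be told apart from it. Several cell types contributed RNA. All 12 macrophage markers were higher in MI, with a summed level of 4530.4 to 4754 CPM (counts scaled to TMM-adjusted library size) in sham and 21436 to 24262 in MI, and all 10 pan-endothelial markers were lower (8020.5 to 8127 and 1762 to 1819 CPM). Neither list had a marker at 0 in a whole group. Cd68, of macrophages, stood at 99.95 ± 4.10 CPM in sham against 1448 ± 174 CPM in MI (SD, n = 3), and the pan-leukocyte gene Ptprc at 106 ± 2.81 against 684 ± 111 CPM. Pecam1, of endothelium, stood at 1604 ± 19.6 against 386 ± 5.9 CPM. All 8 cardiomyocyte markers were lower in MI and 6 of the 7 neutrophil markers tested were higher. Among those 6, Ngp had 0 counts in every sham library. It passed the filter on low counts through MI alone, so its call is no support. The lymphatic regulator gene Prox1 was low, at 7.12 ± 0.548 CPM in sham compared with 1.26 ± 0.456 CPM in MI (SD, n = 3), and 6 of 7 lymphatic markers were lower in MI. The remaining lymphatic marker, Pdpn, was 40.8-fold higher in MI (4.93 ± 0.960 CPM in sham, 202 ± 7.01 CPM in MI). In such bulk RNA, fewer cells of a type and less RNA per cell cannot be told apart, and the part of cell composition in the differences below was not tested.

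In MI the listed folding and degradation genes stood higher nearly throughout, while the listed genes of the Atf4-Ddit3 arm did not move as a group. The wider lists given further below did not repeat this contrast. Of the 32 genes, 25 rose, 1 fell and 6 did not pass. A gene passed at an adjusted p of 0.05, by the quasi-likelihood test of edgeR and the Benjamini-Hochberg method over 13370 genes. Over all genes tested, 73.3% passed, 36.4% as higher and 36.9% as lower in MI, so the total of 26 (81.2%) lay near the background and the difference lay in the direction. The median log2 fold change (MI minus sham) was 1.02 over the 32 genes and -0.015 over all genes tested. The 2 groups did not overlap in CPM for 26 of the 32 genes, against 76.1% of all genes tested. Scaling libraries to total counts in place of TMM lowered the median of all genes by 0.35; then 22 of the 32 rose and 6 fell, and of all genes 3549 were called higher and 6628 lower, in place of 4861 and 4940.

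**Figure D1:**
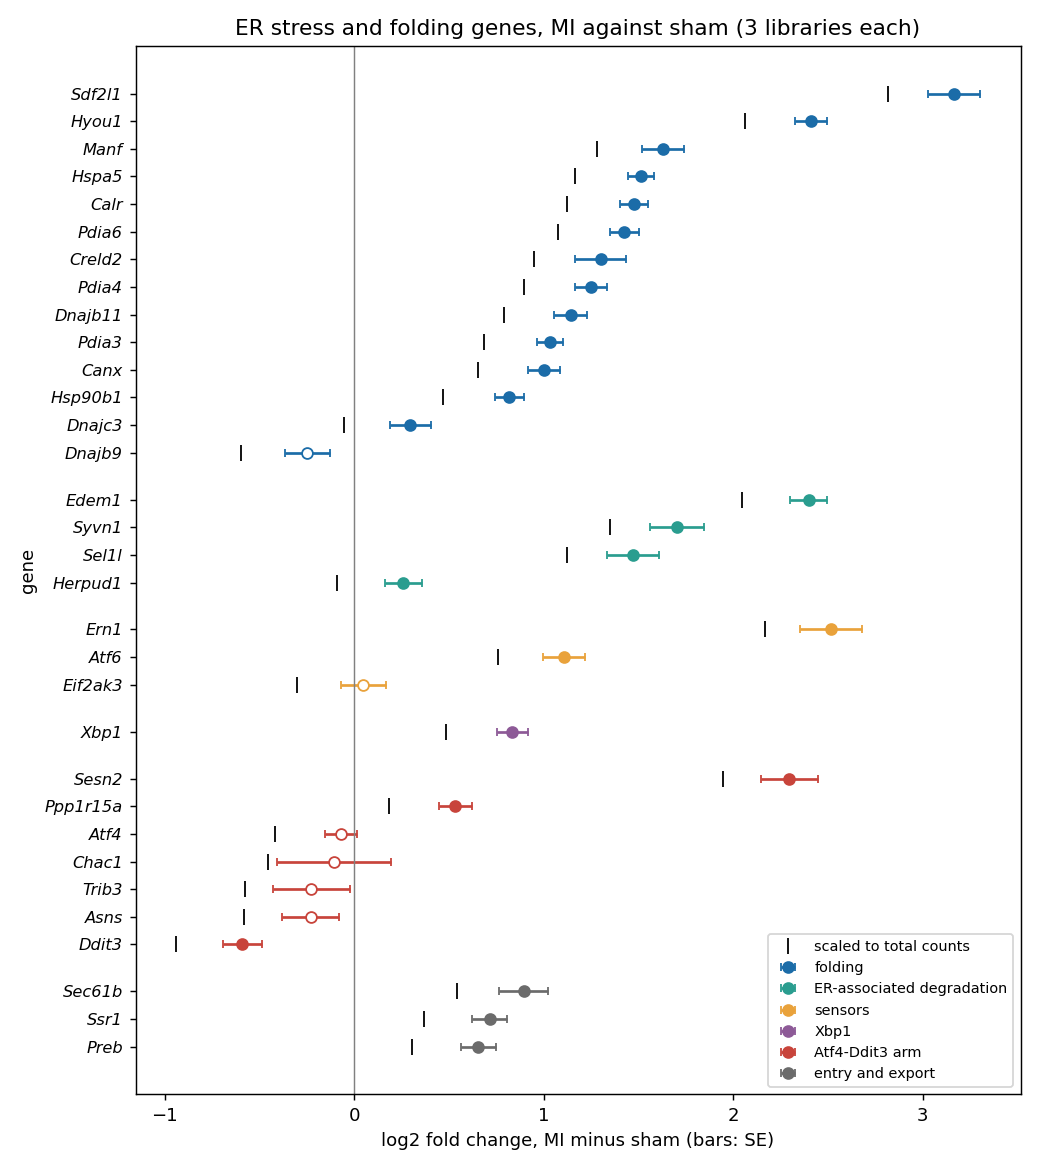
Log2 fold change of each gene (horizontal axis, MI minus sham) with its SE, grouped by role; filled points passed an adjusted p of 0.05, open points did not, and black ticks give the value with libraries scaled to total counts. The folding genes run from -0.25 (Dnajb9) to 3.16 (Sdf2l1), and the Atf4-Ddit3 arm from -0.59 (Ddit3) to 2.30 (Sesn2).

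Promoter sequence was searched for elements already known from ER stress genes. Their share among these listed genes is therefore a description and no independent test. The ER stress response element (ERSE) is a promoter sequence known to bind ATF6 and XBP1 together with the factor NF-Y, and is written CCAAT, then any 9 bases, then CCACG. It was searched on both strands in RefSeq promoter windows of GRCm38.p6, from 250 bases before to 50 bases after each start; 29 of the 32 genes had a window. The GENCODE M21 start was the same for 10 of the 29 and 3 to 258 bases away for the other 19, so windows and positions depend on the annotation; for Hspa5 it lies 120 bases upstream, which puts the Hspa5 match after that start. ERSE matched in 39 of 32851 windows (0.119%), and in 0.125% of the windows of tested genes. It matched in 8 of the 29 genes, of which 7 were among the 12 folding genes with a window and the other was Syvn1 of the degradation group, and in none of the 7 genes of the Atf4-Ddit3 arm. The 9 matches are shown because these 8 genes share them; each is read in the direction of the element, the capitals mark its CCAAT and CCACG parts, and 5 flanking bases stand on each side.
Hspa5, chr2:34772020-34772048, plus strand: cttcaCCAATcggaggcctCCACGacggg
Hsp90b1, distal, chr10:86705633-86705661, minus strand: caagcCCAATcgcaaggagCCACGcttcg
Hsp90b1, proximal, chr10:86705528-86705556, plus strand: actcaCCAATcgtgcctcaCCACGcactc
Calr, chr8:84847070-84847098, plus strand: atgggCCAATgagggtcgaCCACGcgttg
Canx, chr11:50325795-50325823, minus strand: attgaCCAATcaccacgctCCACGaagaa
Pdia6, chr12:17266486-17266514, plus strand: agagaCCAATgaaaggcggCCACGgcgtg
Creld2, chr15:88819515-88819543, minus strand: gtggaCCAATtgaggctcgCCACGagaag
Dnajc3, chr14:118937822-118937850, plus strand: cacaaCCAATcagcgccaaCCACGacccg
Syvn1, chr19:6046527-6046555, plus strand: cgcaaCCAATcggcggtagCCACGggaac
The spacer bases differ from site to site. Hsp90b1 is the gene with 2 matches, on opposite strands, which stand in the following stretch from 220 to 80 bases before its start (minus strand, chr10:86705524-86705664); the second element reads there in reverse, as CGTGG and ATTGG.
Hsp90b1 promoter: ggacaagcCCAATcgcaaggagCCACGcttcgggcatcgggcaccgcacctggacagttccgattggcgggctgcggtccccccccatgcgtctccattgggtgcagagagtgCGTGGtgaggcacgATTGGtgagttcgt

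All 8 genes with an ERSE match rose in MI, by log2 fold changes of 0.30 to 1.70 (median 1.36), although the rise of Dnajc3 lost its call under total-count scaling (log2 fold change -0.052). Among the folding genes alone, the 7 with a match had a median of 1.30 and the 5 with a window and no match had one of 1.14, with values from -0.25 to 3.16. Sdf2l1, the gene that rose most, had no match in its window. These counts are a description of sequence letters, not of binding. The core of a second XBP1-linked element, TGACGTG, was found in 2.01% of all windows, in 2.68% of those of tested genes and in 1 of the 29 genes, Hspa5.

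The element of the Atf4 arm, known as CARE and searched as TGATGNAA on both strands, lay in 3.97% of all windows and in 2.38% of those of tested genes. TTGCATCA, which on the other strand is 1 of the forms of that element, lay in 0.895% and 0.604%. CARE matched in 3 of the 7 Atf4-Ddit3 arm genes and in 1 of the 4 degradation genes, and in no folding gene. The 4 matches are shown with the element in capitals and 8 bases on each side, because 3 of them stand in the Atf4-Ddit3 arm.
Chac1, chr2:119351041-119351064, minus strand: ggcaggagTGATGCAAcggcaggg
Asns, chr6:7693217-7693240, minus strand: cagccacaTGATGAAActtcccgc
Trib3, chr2:152344031-152344054, plus strand: cgcccggcTGATGTAAacctgagc
Herpud1, chr8:94386309-94386332, minus strand: gtgcgggcTGATGCAAcccgccgt
The Trib3 match lies after the RefSeq start of the gene and the others before theirs. Of these genes, Chac1, Asns and Trib3 did not pass the test and Herpud1 was near the threshold.

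**Figure D2:**
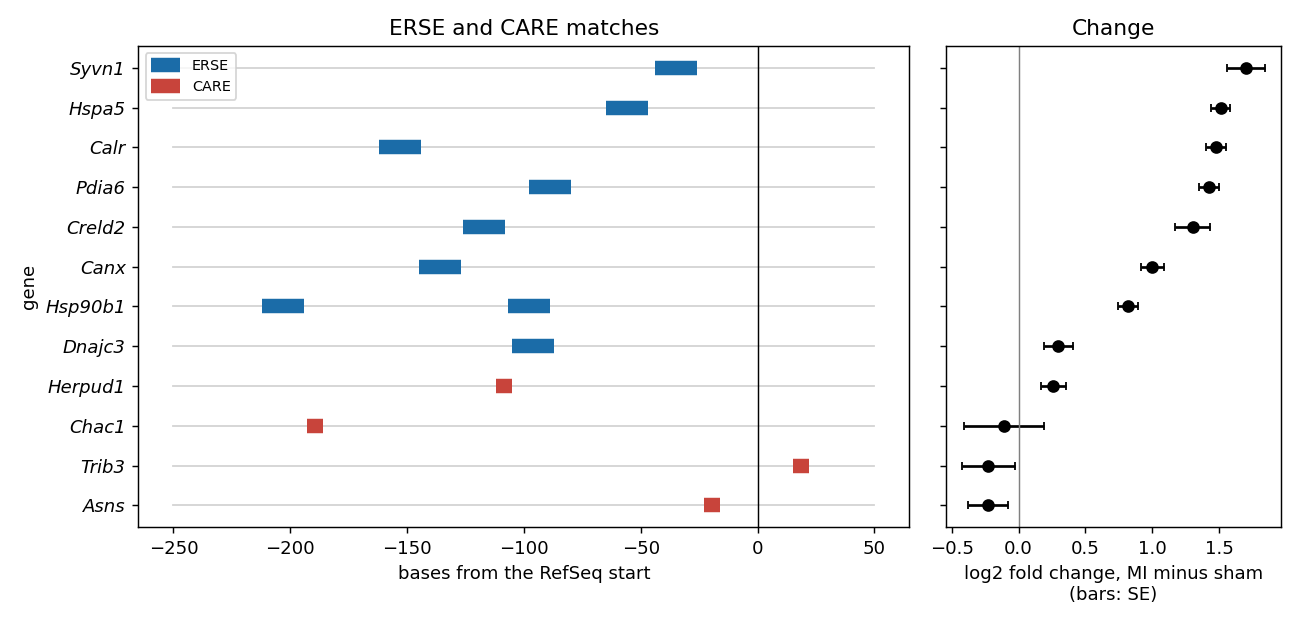
Left, positions of ERSE (blue) and CARE (red) matches in bases from the RefSeq start for the 12 genes with a match; right, log2 fold change with SE for the same genes. The 8 ERSE genes all lie above 0, and the 4 CARE genes lie between -0.23 and 0.26.

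Among the folding genes, 13 of 14 rose and none fell (median 1.27), or 12 rose and 1 fell with libraries scaled to total counts. Hspa5 encodes BiP, the abundant Hsp70 of the ER that also holds the sensors inactive. Its level was 1843, 1879.7 and 1864 CPM in the sham libraries and 5561, 5070.5 and 5305 CPM in the MI libraries. Every MI library lay above every sham library. Hspa5 rose 2.85-fold (log2 fold change 1.51 ± 0.07, SE; edgeR adjusted p = 2.09e-09). The gene lies on chromosome 2 from 34772090 to 34776529 in GRCm38.p6.

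Among the folding genes, the largest rises were in partners of BiP. Sdf2l1, a cofactor of the BiP cycle, was at 10.1, 8.48 and 9.94 CPM in sham, and it was at 75.5, 92.6 and 88.2 CPM in MI. It rose 8.97-fold (log2 fold change 3.16 ± 0.14, edgeR adjusted p = 1.34e-09). Hyou1, a nucleotide exchange factor for BiP, was at 52.0, 51.9 and 53.8 CPM in sham. It reached 271, 281 and 286 CPM in MI and rose 5.31-fold. Both genes had groups far apart compared with the spread within them. Manf, a secreted BiP-binding protein, rose 3.09-fold from 98.3 ± 14.0 to 304 ± 24.0 CPM (SD, n = 3), and its locus overlaps other coding genes.

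The J-domain partners of BiP did not move alike. Dnajb11 rose 2.21-fold, from 111 ± 7.01 to 244 ± 12.7 CPM. Dnajc3, which encodes P58IPK, had 113 to 128 CPM in sham libraries and 138 to 174 CPM after MI, a 1.23-fold rise near the threshold (edgeR adjusted p = 0.0257). That call was lost without sham 1 (edgeR adjusted p = 0.114), with a stricter filter on low counts (0.0519) and with limma on log2 TPM (0.403), and under total-count scaling the estimate was below 0. Dnajb9, known as a strong target of the IRE1 route, was at 223, 217 and 249 CPM in sham against 232, 170.5 and 178 CPM in MI. The groups overlapped through MI 1, and the log2 fold change of -0.25 ± 0.12 did not pass (edgeR adjusted p = 0.075). Without MI 1 it passed as lower (log2 fold change -0.37, adjusted p = 5.88e-06), as it did with libraries scaled to total counts (-0.60, adjusted p = 0.000713). Dnajb9 was the folding gene that did not rise.

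All lectin chaperones and disulfide isomerases of the list rose. Calr, the soluble lectin calreticulin, was at 653, 649.8 and 640.1 CPM in sham compared with 1686, 1884 and 1828 CPM in MI, a 2.78-fold rise. Canx, its membrane-bound counterpart, rose 2.00-fold (316 ± 6.85 to 632 ± 56.7 CPM). Pdia6 rose 2.69-fold, Pdia4 2.37-fold and Pdia3, the isomerase that works with both lectins, 2.05-fold. In each of these genes the lowest MI library exceeded the highest sham library. Hsp90b1, the ER Hsp90, rose 1.76-fold, from 748 ± 15.8 to 1318 ± 92.9 CPM. Creld2, another isomerase-like stress gene, rose 2.46-fold from 26.2 ± 3.58 to 64.4 ± 7.95 CPM. Hsp90b1, Canx, Pdia3 and Dnajb11 did not pass a test against a minimum fold change of 2, nor did Dnajc3.

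**Figure D3:**
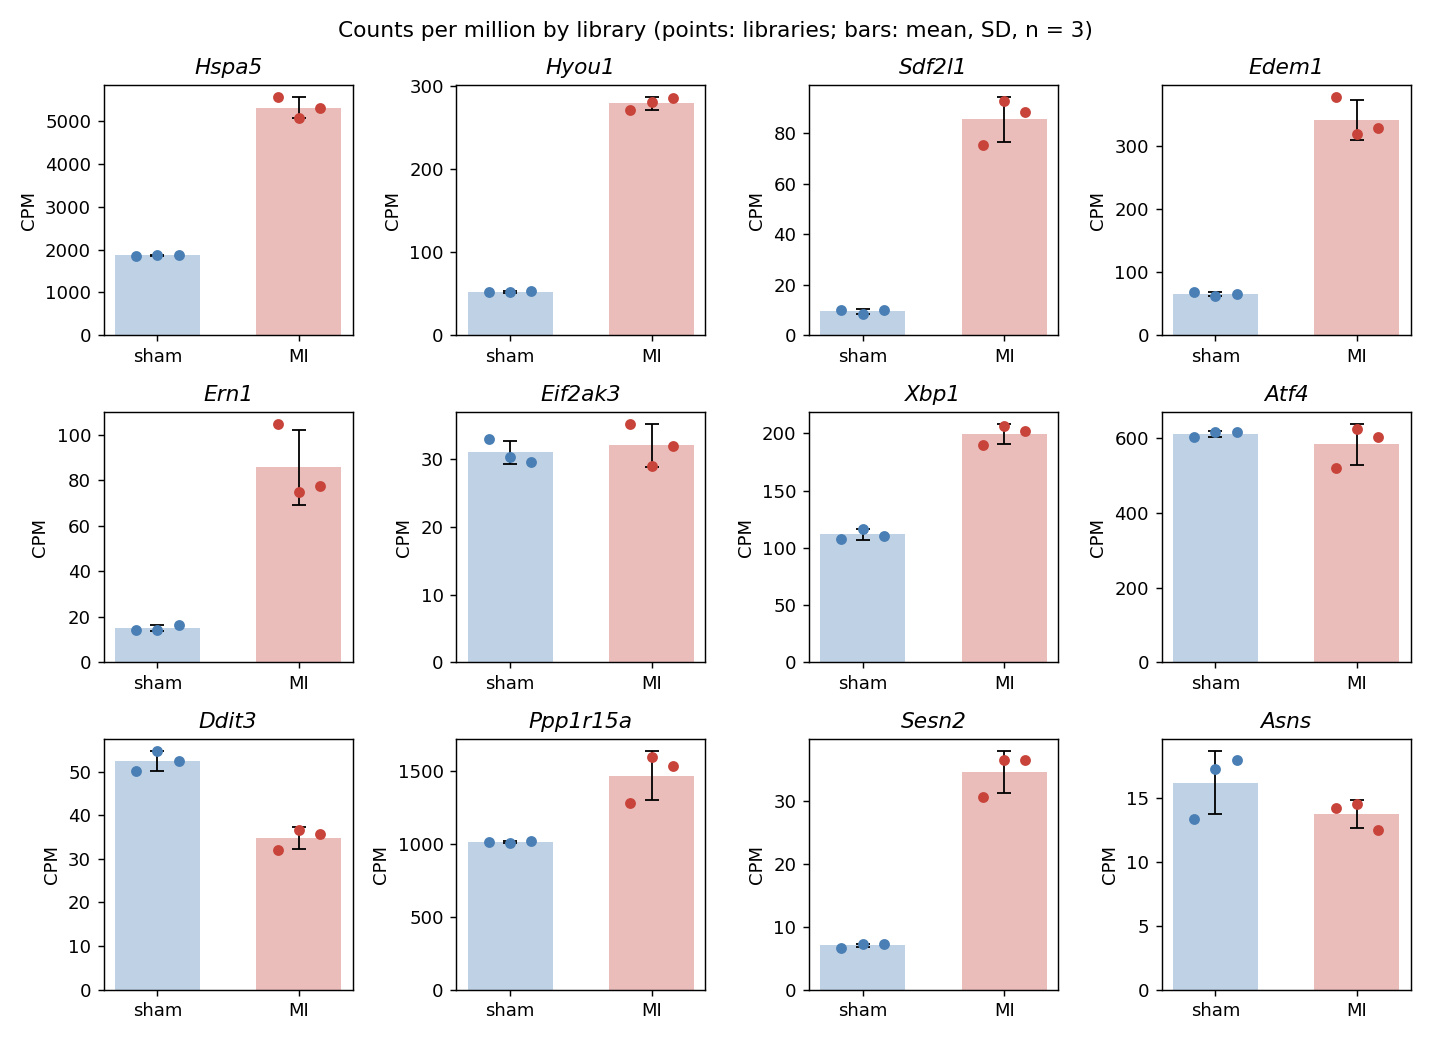
CPM of 12 genes in each library (points), with the group mean (bar) and SD (n = 3), each panel on its own axis from 0. Hspa5, Hyou1, Sdf2l1, Edem1, Ern1, Xbp1, Ppp1r15a and Sesn2 are higher in every MI library than in any sham library, Ddit3 is lower, and the groups overlap for Eif2ak3, Atf4 and Asns.

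All 4 genes of ER-associated degradation rose (median 1.59), 3 with libraries scaled to total counts. Edem1, a lectin that picks out misfolded glycoproteins, was at 68.1, 61.6 and 64.9 CPM in sham against 378, 318 and 329 CPM in MI, and rose 5.27-fold (edgeR adjusted p = 6.71e-10). The ubiquitin ligase gene Syvn1 (HRD1) rose 3.25-fold from 24.3 ± 4.75 to 79.2 ± 8.72 CPM. Its adaptor gene Sel1l rose 2.78-fold from 62.0 ± 9.37 to 172 ± 27.1 CPM. Herpud1, which helps to assemble the HRD1 complex and responds to several stress routes, was the exception in size. Its sham libraries were at 125, 114 and 101 CPM and its MI libraries at 128, 139 and 139 CPM, a 1.20-fold difference (edgeR adjusted p = 0.0282). The call was lost in 4 of the 6 fits that left out a library (adjusted p of 0.0721 without sham 2, 0.137 without sham 3, 0.0535 without MI 2 and 0.101 without MI 3). It was also lost with a stricter filter on low counts (adjusted p = 0.0611), with MI thinned to the sham depth (0.0599) and with limma on log2 TPM (0.36), and with libraries scaled to total counts the estimate was -0.090.

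The sensors differed from each other. Ern1 (IRE1) was at 14.1, 14.4 and 16.6 CPM in sham compared with 105, 74.9 and 77.5 CPM in MI. It rose 5.72-fold (log2 fold change 2.52 ± 0.16, edgeR adjusted p = 3.87e-08), with MI 1 above the other 2 MI libraries. Atf6 was at 56.4 to 66.8 CPM in sham against 122 to 152 CPM in MI, a 2.15-fold rise. Eif2ak3 (PERK) was at 32.9, 30.3 and 29.5 CPM in sham compared with 35.1, 28.9 and 31.9 CPM in MI. Its groups overlapped, and the log2 fold change of 0.047 ± 0.12 did not pass (edgeR adjusted p = 0.733). With libraries scaled to total counts Eif2ak3 was called lower (log2 fold change -0.30, adjusted p = 0.0381). The log2 ratio of Ern1 to Eif2ak3 within a library, which no scaling of libraries can move apart from the 0.5 CPM added to each value, went from -1.02 ± 0.19 in sham to 1.40 ± 0.15 in MI (SD, n = 3).

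Xbp1, whose spliced mRNA encodes the factor of the IRE1 route, was at 108, 117 and 111 CPM in sham against 189.5, 207 and 202 CPM in MI. It rose 1.78-fold (log2 fold change 0.83 ± 0.08, edgeR adjusted p = 1.91e-06). The count joins the spliced and unspliced forms. At the ER's entry and exit, all 3 genes rose modestly. Sec61b, a subunit of the translocation channel, rose 1.86-fold, Ssr1, of the translocon-associated complex, 1.64-fold, and Preb, the exchange factor that starts vesicle coats for export, 1.57-fold.

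In the Atf4-Ddit3 arm 2 genes rose, 1 fell and 4 did not pass, with a median of -0.11. With libraries scaled to total counts 1 rose and 4 fell. Atf4 was at 602, 615 and 614 CPM in sham compared with 519.5, 622 and 603 CPM in MI. MI 1 was the low library, and the groups overlapped. The log2 fold change of Atf4 was -0.069 ± 0.08 (edgeR adjusted p = 0.463), 0.030 without MI 1, and -0.42 with libraries scaled to total counts, where it was called lower (adjusted p = 0.000495). ATF4 is controlled largely through translation, which a transcript count does not show.

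Ddit3 was the member that fell. It was at 50.2, 54.7 and 52.5 CPM in sham against 32.04, 36.7 and 35.7 CPM in MI, and every MI library lay below every sham library. It fell 1.51-fold (log2 fold change -0.59 ± 0.10, edgeR adjusted p = 0.000252). It overlaps the methionyl-tRNA synthetase gene Mars on the opposite strand, and no strand setting was given for the counts. Of the amino acid and feedback genes of this arm, Asns (asparagine synthetase) was at 13.4 to 17.9 CPM in sham compared with 12.5 to 14.5 CPM in MI. Trib3, a pseudokinase induced by CHOP, was at 8.22 to 14.4 and 8.12 to 10.2 CPM. Chac1, a glutathione-degrading enzyme, had 2.57 to 4.97 and 2.60 to 3.50 CPM. None of these 3 passed, with log2 fold changes of -0.23 ± 0.15, -0.23 ± 0.20 and -0.11 ± 0.30 (SE). For Chac1, with 10 to 18 counts in a sham library, only a large difference was detectable at this depth.

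The 2 members of this arm that rose, Sesn2 and Ppp1r15a, are also known outside the ER response, as is the arm as a whole. Sesn2, a stress-inducible regulator of mTORC1, was at 6.68, 7.19 and 7.18 CPM in sham against 30.6, 36.4 and 36.4 CPM in MI, and rose 4.91-fold (log2 fold change 2.30 ± 0.15, edgeR adjusted p = 4.54e-08). Ppp1r15a, which encodes GADD34, the phosphatase subunit that reverses eIF2 phosphorylation, was at 1016, 1011 and 1023 CPM in sham compared with 1281, 1598 and 1536 CPM in MI. Its 1.45-fold rise (edgeR adjusted p = 0.000158) lost its call under total-count scaling (adjusted p = 0.0673). Of 10 genes known to respond to tissue handling, a list without Ppp1r15a, 2 were higher and 7 lower in MI (0 and 8 under total-count scaling), with a summed level of 8202 to 8476 CPM in sham against 5231 to 5998 CPM in MI and no marker at 0 in a whole group. The part of handling in these values was not tested.

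Genes were also set against BiP within the same library. All genes chosen for this had log2 fold changes below that of Hspa5 (1.51), so the direction of their ratios followed from that choice. Members that rose more, such as Sdf2l1 (3.16) and Hyou1 (2.41), were not set against it. The log2 ratio of Ddit3 to Hspa5 was -5.18, -5.09 and -5.14 in sham and -7.42, -7.09 and -7.19 in MI, a difference of -2.10. The ratio of Atf4 to Hspa5 differed by -1.58, from -1.61 ± 0.01 to -3.19 ± 0.20 (SD, n = 3). Smaller differences were found for Hsp90b1 (-0.70), Xbp1 (-0.68) and Pdia4 (-0.27), each relative to Hspa5. The groups did not overlap for any of the 6 ratios computed. Each gave p = 0.1 in an exact two-sided permutation test, the smallest that 3 against 3 libraries can give, and 0.1 after Benjamini-Hochberg adjustment over the 6.

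**Figure D4:**
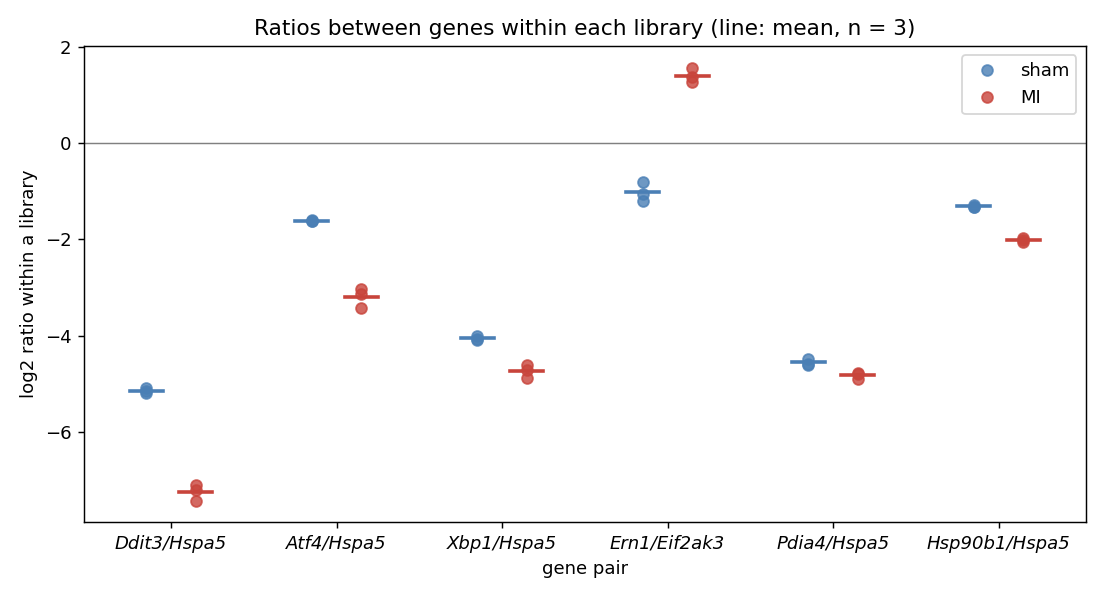
Log2 ratio of the CPM of 2 genes within each library (points) with group means (lines, n = 3) for 6 pairs. Ern1 relative to Eif2ak3 is the pair that goes up, by 2.42, and all 5 ratios to Hspa5 go down. The 5 genes set against Hspa5 all had log2 fold changes below its own.

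The order of levels was compared in TPM, which the authors scaled by transcript length. Hspa5 led in both groups, with 1395 ± 16.7 TPM in sham and 3593 ± 390.3 TPM in MI (SD, n = 3). In sham the next levels were those of Ppp1r15a (841 ± 1.19), Atf4 (786 ± 9.70) and Calr (645 ± 8.75). In MI, Calr (1602 ± 14.4) stood second and Ppp1r15a (1084 ± 63.2) next. Atf4 (659 ± 27.2) lay below Hsp90b1 (825 ± 109) and Pdia3 (776 ± 64.6), and its libraries overlapped those of Manf (627 ± 26.3) in range. The folding genes together made up 4091 ± 43.6 TPM in sham and 9074 ± 678 TPM in MI, while the Atf4-Ddit3 arm summed to 1775 ± 18.6 and 1853 ± 91.1 TPM. Hspa5 was 34.1 ± 0.303% of the folding sum in sham and 39.5 ± 1.35% in MI. The lowest levels were those of Chac1 and Ern1 in sham, at 4.24 ± 1.65 and 4.27 ± 0.617 TPM, which do not differ beyond their spread.

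**Figure D5:**
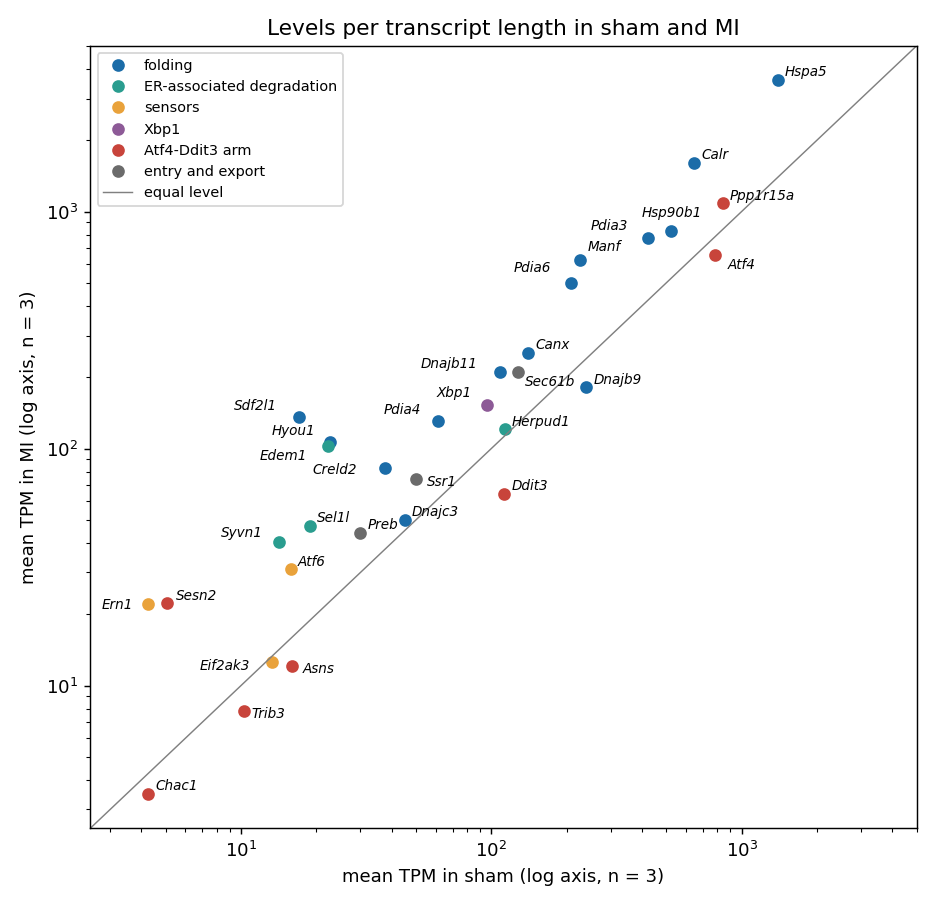
Mean TPM of the 32 genes in sham (horizontal) and MI (vertical), both on log axes, coloured by role (n = 3 per group); the line marks equal levels. Sdf2l1, Ern1, Hyou1, Edem1 and Sesn2 lie farthest above the line, and Ddit3 farthest below.

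MI 1 differed from the other MI libraries across the whole table, not in the 32 genes alone. A chi-square per gene was 35.3 between MI 1 and MI 2, 21.3 between MI 1 and MI 3, and 4.14 between MI 2 and MI 3. MI 1 was the highest MI library for 13 of the 32 genes and the lowest for 17, where 2 lay between. Such positions were not counted over all genes tested, so these counts cannot be read as particular to the 32. All 3 sensors were highest in MI 1, and 5 of the 7 Atf4-Ddit3 arm genes were lowest in it. Hspa5 rose by nearly the same amount with any 1 library left out (log2 fold change 1.50 to 1.54).

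Other ER genes were read from lists chosen by function. As background, 36.4% of all genes tested were called higher and 36.9% lower in MI. With libraries scaled to total counts, 3549 and 6628 of the 13370 were. Counts near those shares say little about a list. Of 29 further folding genes tested, 17 rose and 5 fell (median 0.40), or 12 and 10 with libraries scaled to total counts. P4hb, the main disulfide isomerase, rose 2.08-fold, and Fkbp7, a prolyl isomerase, fell 4.07-fold. Of 22 further degradation genes 17 rose and 2 fell (median 0.74), or 12 and 3 under total-count scaling. Vcp, the ATPase that extracts proteins from the ER, rose 2.39-fold and its small ER partner gene Svip fell 3.81-fold. Of 31 genes of protein entry and N-glycan transfer 19 rose and 1 fell (median 0.30), or 12 and 6 with libraries scaled to total counts. Stt3b, a catalytic subunit of oligosaccharyltransferase, rose 2.71-fold, and Sec62 fell 1.51-fold. Of 19 ER exit genes 12 rose and 1 fell (median 0.51), or 9 and 6 with that scaling, with the cargo receptor gene Surf4 3.46-fold higher and the coat gene Sec23a 1.28-fold lower.

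The wider integrated stress response was read in the same way, beside the same background shares. Of 37 further amino acid and stress-response genes tested, 25 rose and 9 fell (median 0.76), or 17 and 10 with libraries scaled to total counts. Gdf15, a stress-induced cytokine, rose 18.0-fold from 15.1 ± 2.38 to 273 ± 41.0 CPM, and Vldlr, a lipoprotein receptor, fell 8.77-fold. Of 13 stress kinase and eIF2 genes 8 rose and 2 fell (median 0.46), or 5 and 4 with that scaling. Ppp1r15b, the constitutive counterpart of Ppp1r15a, rose 2.32-fold, and Eif2b4, a subunit of the eIF2 exchange factor, fell 1.49-fold. Of 12 genes for other membrane-bound factors and their processing 3 rose and 4 fell (median -0.13), or 2 and 7 with that scaling. Those counts lay near the shares of all genes tested. Tmbim6, an inhibitor of ER-linked cell death, rose 1.93-fold, and Crebrf fell 2.02-fold. The median of the further amino acid and stress-response genes (0.76) lay above that of the further folding genes (0.40), unlike the order among the members. No difference between these lists was tested.

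Plasma cells are known to carry very high levels of ER folding genes, and their markers were read beside the folding genes. Jchain was at 0.349 ± 0.304 CPM in sham compared with 0.105 ± 0.0013 CPM in MI, and Mzb1 at 0.260 ± 0.0146 and 0.0703 ± 0.0310 CPM, both too low to be tested. Of the 8 markers 5 were tested, 3 rose and 2 fell, and the summed level of 60.9 to 62.7 CPM in sham against 167 to 189 CPM in MI came mostly from Prdm1, Sdc1 and Irf4. No marker of the list was at 0 in a whole group. Macrophage markers rose with the folding genes (summed levels above). Of 7 fibroblast markers 3 rose and 4 fell, with a summed level of 1406 to 1441 CPM in sham against 1923 to 1968 CPM in MI. The part of any of these cell types in the rise was not tested.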

How the data were processed

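The members and gene lists were chosen with earlier results of these data known. The deposited table gave estimated counts (2 decimals, not scaled), TPM, FPKM and library-scaled counts (signal values), all made by the authors; FPKM, the scaled signal and the authors' group averages were not used. Reads were mapped to GRCm38 per the series' design text, and the submitters' processing notes name GRCm38.p6. For aligner, counting program, strand setting and filters: not given in the sources used here. Counts were rounded. In R 4.3.3, edgeR 4.0.16 applied filterByExpr (13370 of 17714 genes kept), TMM scaling and the quasi-likelihood test with group as the only term, with Benjamini-Hochberg adjustment over all genes tested. The SE is the log2 fold change over the square root of F. CPM are scaled to TMM-adjusted depth. Sham depth sets the precision for low genes. Alternatives used DESeq2 1.42.0 and limma 3.58.1, with thinning, scaling, filter, block and leave-one-out settings. The procedure was tested on simulated data. Positions and promoters came from RefSeq (GRCm38.p6) and gene overlaps from GENCODE M21; counts of 6 members (Pdia3, Pdia6, Manf, Syvn1, Ddit3, Ppp1r15a) could take in reads of an overlapping coding gene. Named genes were all members, and from each pathway list the gene with the smallest p in each direction. Cd68, Ptprc, Pecam1, Prox1, Jchain and Mzb1 were named as markers, and Prdm1, Sdc1, Irf4, Ngp and Pdpn after their values were seen. The replicate numbers in the titles did not pair the libraries.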

Additional observations from a re-analysis of the deposited data

How the results depend on the processing

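The 32 genes were refitted under 16 alternatives. With DESeq2, RLE scaling, limma-voom, no low-count filter or the replicate block, every call and direction among the 32 was kept. The replicate block gave 25 higher and 1 lower, as without it (4764 and 4871 of all genes); same-numbered libraries did not deviate together (r of -0.07, -0.04 and 0.0001). With libraries scaled to total counts, 6 members were called lower in place of 1, 1 folding gene and 1 sensor gene were called lower in place of 0, and the Atf4-Ddit3 arm had 1 higher and 4 lower in place of 2 and 1; Dnajc3 (-0.052), Herpud1 (-0.090) and Eif2ak3 (-0.30) changed sign. With the stricter filter and with MI thinned to the sham depth, 2 members were lower, 1 of them a folding gene; the filter left 23 members higher (12 folding, 3 degradation), without Dnajc3 and Herpud1, and thinning turned Eif2ak3 (-0.14) and Chac1 (0.26). With limma on log2(TPM + 1), 4 members were lower, 1 a folding gene and 3 of the Atf4-Ddit3 arm, and Eif2ak3 was at -0.095. That fit moved the median of all genes by -0.13, and no low-count filter moved it by 0.14. Tested against a fold change of 2, 13 members were higher and 0 lower, beside 2121 higher and 2039 lower of all genes. Of the 13, 8 were folding genes, 1 was a sensor and 1 was Sesn2 of the Atf4-Ddit3 arm. The others were Edem1, Syvn1 and Sel1l of the degradation group. Leaving out 1 library gave 1 to 2 members lower, 0 to 1 of them folding genes, and log2 fold changes of -0.0023 to 0.11 for Eif2ak3, -0.12 to 0.030 for Atf4, -0.39 to 0.017 for Trib3 and -0.27 to 0.25 for Chac1. Where a fit tested fewer genes or samples that follows from its construction; other causes were not tested. No ratio between 2 members changed sign. The sham depth limits what can be seen in Chac1, Sesn2 and Trib3.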

Other observations

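ERSE matches were also found outside the 32 genes. Over all genes tested, 36.4% were called higher and 36.9% lower in MI, and the counts given next are not far from those shares. Of 9 other tested genes with a match in a promoter window, 3 were higher in MI, 4 were lower and 2 did not pass (edgeR adjusted p of 0.05), with a median log2 fold change of -0.46 and values from -2.27 to 2.59. One of the 9 was Ero1b, an oxidase of the ER, and another was Alg12, of N-glycan assembly; both were named after their values were seen.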
